A study of Mus musculus with 6 samples.

Results

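Endothelial genes of brown adipose tissue are described here: 32 genes that mark blood and lymphatic vessel cells, named by symbol and matched to the Ensembl identifiers of the deposited tables. All 32 were found among the 45320 identifiers, and all 32 passed the filter on low values (on average 1 FPKM or more), as did 13527 genes in all. FPKM counts fragments per length of transcript and per sequencing depth. The tissue came from C57BL/6 mice, an inbred strain, that were given a diet rich in sugar and fat from 4 weeks of age. After 4 weeks they were divided into a group that stayed on this diet alone (untreated 13, 14 and 15) and a group whose diet also held RO5508887, a small molecule that inhibits the protease BACE1 (treated 17, 33 and 35). All animals thus ate the rich diet, and no lean control group enters the comparison. Samples 33 and 35 had the same value for each of the 45320 identifiers. They did not differ at all and were counted as 1 sample, treated 33/35, which left 3 untreated and 2 treated libraries. Whether each sample is a separate animal is not said in the labels. The p-values therefore measure no more than the spread among these samples, which may be technical.

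Brown adipose tissue is densely supplied with capillaries, which bring oxygen and fatty acids to the heat-producing adipocytes and carry the heat away. Its endothelial cells are built up and maintained by the VEGF and angiopoietin ligands, which act through the receptor tyrosine kinases of the VEGF receptor and TIE families. The SoxF factors (Sox7, Sox17 and Sox18) and the ETS factor Erg hold endothelial identity, Notch signalling sets arterial fate, and Prox1 sets lymphatic fate. Because whole tissue was sequenced, fewer endothelial cells and less RNA per endothelial cell cannot be told apart in any of these values.

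The 3 promoters below show the sequence before the start site of Egfl7 and Tek, members higher in both treated libraries, and of Tie1, the sister receptor of Tek, whose groups overlapped. They come from the RefSeq tables on GRCm38.p6, which held 21 start sites for 16 of the 32 members and had no entry for Sox18. Each line gives the 250 bases before the start, 5′ to 3′ on the gene's strand. Capitals mark matches to GGAAG, the core bound by ETS factors such as Erg, or to ACAANG, a core bound by SOX factors, on either strand.
Egfl7 (chr2:26580833-26581082, plus strand): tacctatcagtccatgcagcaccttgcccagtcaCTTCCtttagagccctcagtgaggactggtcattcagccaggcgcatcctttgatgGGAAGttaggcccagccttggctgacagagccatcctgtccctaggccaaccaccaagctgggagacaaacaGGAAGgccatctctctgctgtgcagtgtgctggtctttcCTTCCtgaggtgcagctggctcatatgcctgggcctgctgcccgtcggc
Tek (chr4:94739039-94739288, plus strand): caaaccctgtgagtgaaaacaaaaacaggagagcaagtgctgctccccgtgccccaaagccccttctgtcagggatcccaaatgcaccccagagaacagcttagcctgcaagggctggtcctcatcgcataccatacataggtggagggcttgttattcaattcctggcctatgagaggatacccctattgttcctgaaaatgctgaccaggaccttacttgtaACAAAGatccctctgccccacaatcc
Tie1 (chr4:118489850-118490099, minus strand): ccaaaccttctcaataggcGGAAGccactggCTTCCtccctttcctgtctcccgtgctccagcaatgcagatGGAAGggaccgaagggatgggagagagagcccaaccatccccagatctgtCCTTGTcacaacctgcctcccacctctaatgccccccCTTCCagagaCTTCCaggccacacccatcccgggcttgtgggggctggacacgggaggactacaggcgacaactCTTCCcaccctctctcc
Egfl7 has 3 start sites in the table, and the window shown is the most upstream. It held GGAAG 4 times and ACAANG 0 times. The middle window (chr2:26583615-26583864) held them 2 and 0 times, and the most downstream (chr2:26586386-26586635) 0 times and 1 time. The single Tek window held GGAAG 0 times and ACAANG 1 time, and the single Tie1 window 6 times and 1 time. Of the 21 member windows, 16 held GGAAG and 9 held ACAANG, where 64.1% and 36.3% of all 32851 windows of this length did. A match describes letters and not a bound site.

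Egfl7 also carries the microRNA gene Mir126a, whose product is known for guarding vessel integrity. The mature sequence in RefSeq, with the seed (bases 2 to 8) in capitals, lies at chr2:26591402-26591423 on the plus strand of GRCm38.p6.
mmu-miR-126a-3p: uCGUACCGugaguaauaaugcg
Mir126a was listed at 0 FPKM in all 5 libraries. These are total RNA libraries, not described as small RNA libraries, so this does not show that the microRNA was absent.

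The libraries differed in tissue makeup before any comparison of groups. Of 33 skeletal muscle markers 32 were matched, and together they took 0.0279%, 7.71% and 0.0264% of the FPKM sum in untreated 13, 14 and 15, and 2.96% and 1.26% in treated 17 and treated 33/35. In untreated 14 and both treated libraries 1 of these markers was listed at 0. Brown adipocyte markers such as Ucp1, all 10 of them above 0 in every library, took 0.755%, 0.221%, 0.772%, 0.566% and 0.665% in the same order. The 5 red cell genes took 0.575%, 0.200%, 0.217%, 0.219% and 0.313%, most in untreated 13. Relative to untreated 13, the depth estimated from the steps between low values was 0.811, 0.881, 1.01 and 0.960 in the other 4 libraries. The total number of reads behind each library was not known.

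Summed, the endothelial members took nearly equal shares of every library, with 0.0902%, 0.0902% and 0.0941% of the FPKM sum in untreated 13, 14 and 15 and 0.0984% and 0.0990% in treated 17 and treated 33/35. Both treated shares lay above all 3 untreated ones, which for treated 33/35 rested on Cldn5, a tight junction gene at 78.1 FPKM in that library. Without Cldn5, left out after the values were seen, the shares were 0.0854%, 0.0864% and 0.0916% without and 0.0948% and 0.0864% with the drug, and the groups overlapped. The summed level of all 32 members was 582, 513 and 601 FPKM without and 588 and 612 FPKM with the drug. For the median member the highest library was 1.43 times the lowest, against 1.71 times for the median of all tested genes. In 8 of the 32 members the highest library was at least 2 times the lowest, where 37% of all tested genes reached this.

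**Figure D1:**
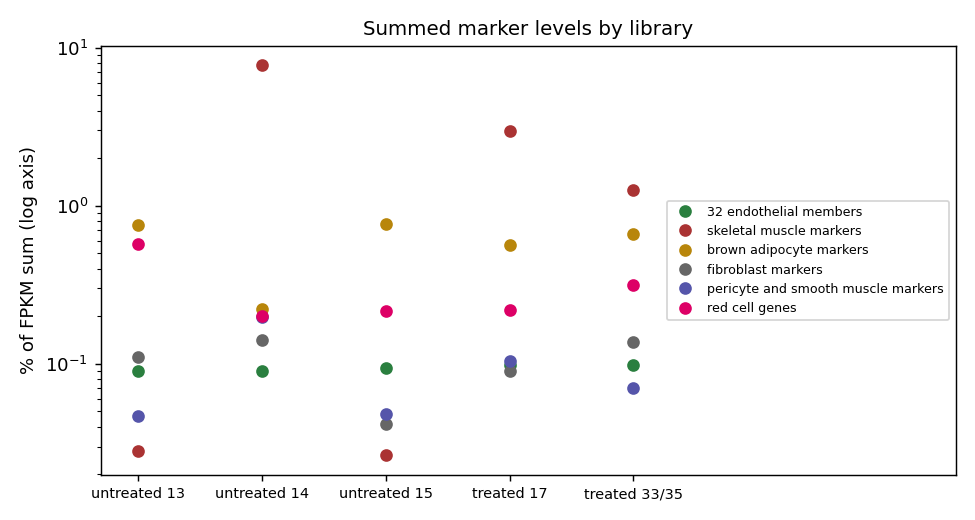
Summed level of each marker list as a percentage of the library's FPKM sum (log axis) in the 5 libraries. The endothelial members stay between 0.0902% and 0.0990%, while the skeletal muscle markers run from 0.0264% in untreated 15 to 7.71% in untreated 14.

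Treated and untreated libraries were compared for each gene on the log2(FPKM + 0.5) scale with limma, a linear model that shares information on the spread across genes, fitted on all 13527 genes. No member passed the test (0 of 32 at an adjusted p under 0.05), where 0.0444% of all tested genes did (4 higher, 0.0296%, and 2 lower, 0.0148%). At an unadjusted p under 0.05 in the same limma fit there was 1 member, Sox18, and 0.924% of all tested genes. The members' mean on the log2 scale was higher with the drug in 15 and lower in 17, where it was higher in 64.3% of all tested genes. Their median log2 fold change was -0.015, beside 0.061 over all tested genes. Without untreated 14, the library with most muscle RNA, the median was -0.051 and again 0 members passed, where 1.18% of 13368 tested genes did (1.11% higher and 0.0673% lower). In that fit all 31 tested muscle markers were called, so the drug cannot be told apart from muscle content there. In 3 members (Erg, Tek and Egfl7) both treated values lay above all untreated ones, where 5.5% of all tested genes did so. In 1 member (Sox18) both lay below, where 3.18% of genes did so. That makes 4 of 32 members with separate groups, where 8.68% of all tested genes had them. Without untreated 14 both treated values lay above the 2 untreated ones for 5 members (Erg, Tek, Egfl7, Prox1 and Pdpn), where 25.3% of genes did so, and below them for 7 (Sox18, Kdr, Flt1, Flt4, Eng, Notch4 and Icam2), where 20.8% did so. Of the 32 members 10 were lowest in untreated 14, where 43.9% of all tested genes were.

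**Figure D2:**
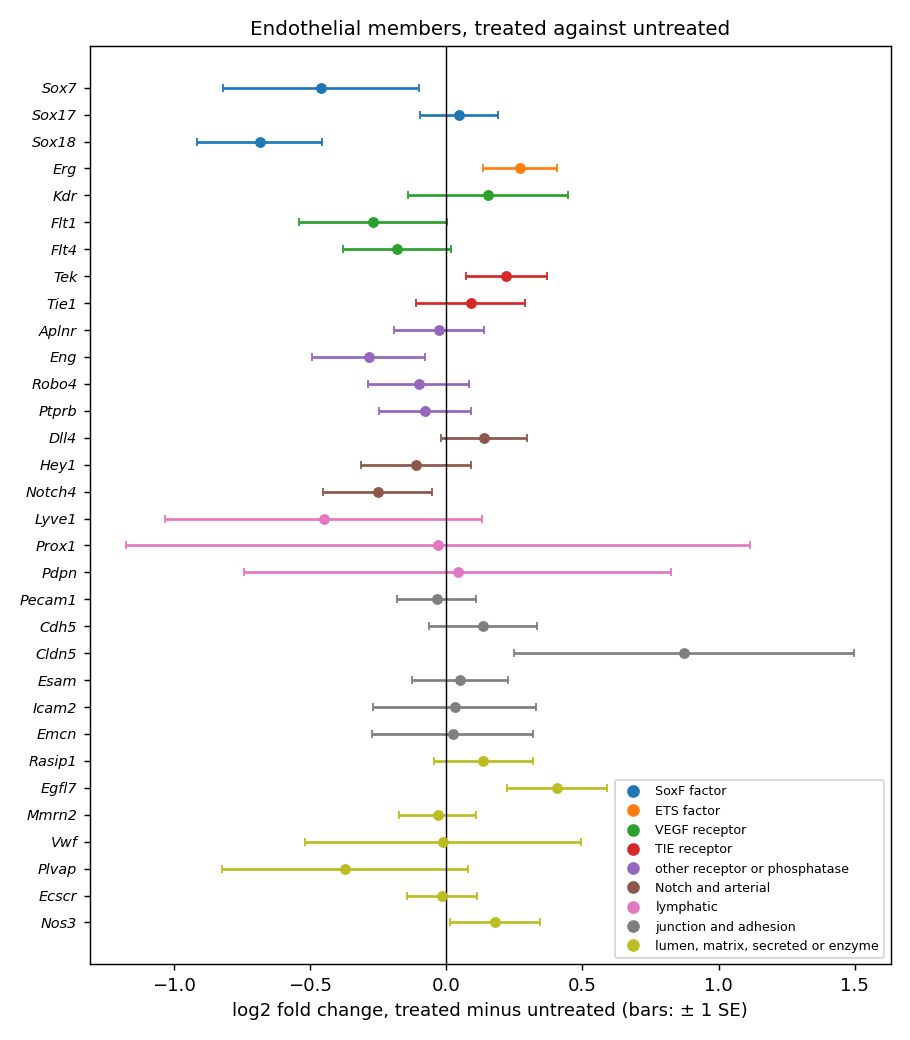
Log2 fold change, treated minus untreated, of each of the 32 members with 1 SE to either side, coloured by role. Sox18 lies lowest at -0.69 and Cldn5 highest at 0.87, and 0 of the 32 passed the test.

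Among the SoxF factors, Sox18 had lower values in the treated libraries, while the groups of Sox7 and Sox17 overlapped. Sox18 (chromosome 2, 181669836 to 181671640, GRCm38), a factor needed for vessel and lymphatic development, measured 17.0, 18.3 and 24.4 FPKM in untreated 13, 14 and 15, against 13.6 and 10.6 FPKM in treated 17 and treated 33/35. Both treated values lay below all untreated ones. The group means were 19.9 ± 3.98 FPKM (SD, n = 3) and 12.1 ± 2.13 FPKM (SD, n = 2), and the log2 fold change was -0.69, with an SE of 0.23 and a limma adjusted p of 1. Across the alternatives it ranged from -0.86 to -0.51 and never passed, with a lowest limma adjusted p of 0.144. Sox7 (chromosome 14, 63943673 to 63950732), which shares targets with Sox18, measured 5.97, 6.18 and 11.5 FPKM without and 6.53 and 4.34 FPKM with the drug. Untreated 15 stood high and treated 33/35 low, and treated 17 lay among the untreated values. Its log2 fold change was -0.46, with an SE of 0.36 and a limma adjusted p of 1. Sox17 (chromosome 1, 4490931 to 4497354), a factor of arterial endothelium, measured 7.75, 8.08 and 9.11 FPKM without and 8.89 and 8.28 FPKM with the drug. The 5 values overlapped fully, at a log2 fold change of 0.05 (SE 0.14).

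Within a library the level of Sox18 was 2.19, 2.26 and 2.68 times that of Sox17 without and 1.53 and 1.28 times with the drug. FPKM is scaled by transcript length, which makes this ratio of levels readable. The ratio of Sox18 to Cdh5, the vascular endothelial cadherin, was 0.321, 0.447 and 0.439 without and 0.259 and 0.190 with the drug. For both ratios the treated libraries lay below the whole untreated range. The ratio of Sox7 to Cdh5 overlapped, with 0.113, 0.151 and 0.206 against 0.124 and 0.0775.

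Erg (chromosome 16, 95359169 to 95586593), an ETS factor that keeps endothelial genes on, ran opposite to Sox18. It measured 7.27, 7.40 and 7.71 FPKM across the untreated libraries, against 9.68 and 8.57 FPKM across the treated pair. The treated values lay above a narrow untreated range, and the log2 fold change was 0.27, with an SE of 0.14 and a limma adjusted p of 1. Relative to Cdh5 the groups overlapped, since untreated 14 had a ratio of 0.181 against 0.184 and 0.153 in the treated libraries.

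**Figure D3:**
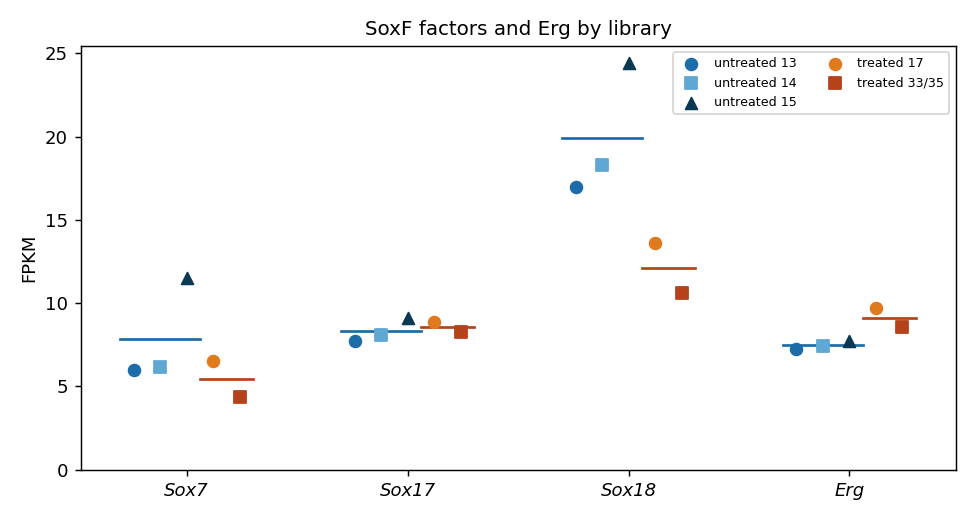
FPKM of Sox7, Sox17, Sox18 and Erg in each library, with bars at the group means. Both treated points lie below the untreated ones for Sox18 (13.6 and 10.6 against 17.0 to 24.4 FPKM) and above them for Erg (9.68 and 8.57 against 7.27 to 7.71 FPKM).

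The groups overlapped in each of the 3 VEGF receptors. Kdr, the main signalling receptor for VEGF-A, measured 32.1, 18.7 and 32.1 FPKM in untreated 13, 14 and 15, against 29.5 and 30.3 FPKM in the treated libraries. Only untreated 14 stood apart, on the low side, and the log2 fold change of 0.15 (SE 0.29) became -0.10 without it. Flt1, which binds VEGF-A and limits its access to Kdr, measured 26.9, 20.4 and 34.2 FPKM without and 24.5 and 19.7 FPKM with the drug. Treated 33/35 was lowest, and the groups overlapped through untreated 14 (log2 fold change -0.27, SE 0.27). The level of Flt1 relative to Kdr was 0.839, 1.09 and 1.07 without and 0.830 and 0.651 with the drug, lower in both treated libraries, although treated 17 lay just under untreated 13. Flt4, the receptor of VEGF-C and VEGF-D on lymphatic and sprouting vessels, was the lowest of the 3 at 2.36, 2.06 and 2.67 FPKM without and 2.17 and 1.87 FPKM with the drug. Its groups overlapped as well (log2 fold change -0.18, SE 0.20). Each of the 3 receptors had a limma adjusted p of 1.

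Tek and Tie1, the TIE receptors, had higher means in the treated libraries, and for Tie1 this turned without untreated 14 (log2 fold change 0.09, or -0.05 without it). Tek, the receptor of the angiopoietins, measured 11.9, 10.5 and 12.7 FPKM without and 13.8 and 13.6 FPKM with the drug. In each treated library it exceeded the untreated range, and the log2 fold change was 0.22, with an SE of 0.15 and a limma adjusted p of 1. Relative to Cdh5 the groups of Tek overlapped, at 0.226, 0.257 and 0.228 without and 0.261 and 0.243 with the drug. Tie1, its orphan partner receptor, measured 21.2, 17.0 and 24.4 FPKM without and 22.6 and 21.5 FPKM with the drug, with the treated values inside the untreated range. In every library Tie1 stood above Tek, by 1.58 to 1.92 times.

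The groups of the other receptors and of the receptor phosphatase overlapped. Eng, a TGF-beta family coreceptor, measured 40.9, 35.7 and 46.1 FPKM without and 38.2 and 29.0 FPKM with the drug (log2 fold change -0.29, SE 0.21, limma adjusted p = 1). Treated 33/35 was lowest and treated 17 lay between untreated 14 and 13. Robo4, an endothelial guidance receptor, averaged 13.2 ± 1.34 FPKM (SD, n = 3) in untreated libraries, against 12.3 ± 2.31 FPKM (SD, n = 2) in treated ones. Ptprb, the phosphatase that restrains Tek, ranged from 19.8 to 22.6 FPKM without and measured 22.3 and 17.8 FPKM with the drug. Aplnr, the apelin receptor, ranged from 6.52 to 7.81 FPKM and measured 6.39 and 7.80 FPKM. All 4 had log2 fold changes below 0, from -0.29 to -0.03, and 0 of the 4 passed.

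**Figure D4:**
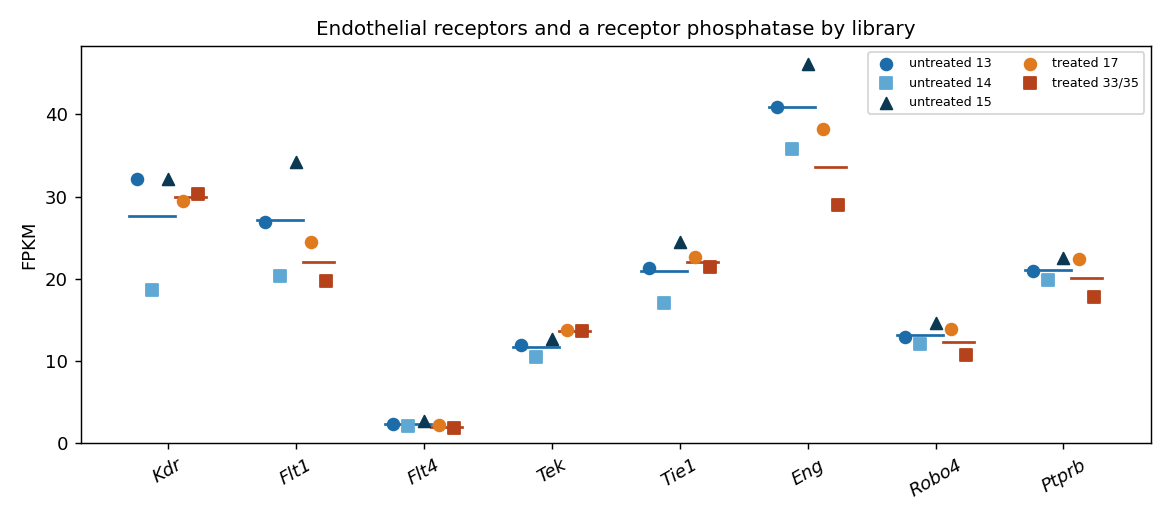
FPKM of the VEGF and TIE receptors, Eng, Robo4 and Ptprb in each library, with bars at the group means. The treated points of Tek (13.8 and 13.6 FPKM) lie above its untreated points, and those of the other 7 genes overlap the untreated range.

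Read against other endothelial genes, some of these receptors separated. When each library was centred on the mean log2 level of 5 pan-endothelial members (Pecam1, Cdh5, Esam, Tie1 and Emcn), both treated values lay below all untreated ones for 5 members: Sox18, Flt1, Flt4, Eng and Notch4. Both lay above for Tek and Egfl7. On that scale 3.72% of all tested genes lay below and 3.27% above without overlap. The log2 fold changes on this scale were -0.74 for Sox18, -0.32 for Flt1, -0.23 for Flt4, -0.34 for Eng and -0.30 for Notch4, and 0.17 for Tek and 0.35 for Egfl7. In limma 0 members passed on this scale either. The 5 centring genes are themselves members, so the values are relative to them alone. Without centring, Flt1, Flt4, Eng and Notch4 overlapped through untreated 14 alone, and lay lower in both treated libraries once it was left out. Untreated 14 was also the lowest library of the centring genes Cdh5, Esam and Tie1, though not of Pecam1 and Emcn. The part of this library in the separation was not tested.

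The Notch and arterial members were close between the groups. Dll4, the Notch ligand of arterial and tip cells, measured 6.81, 6.46 and 7.38 FPKM without and 6.90 and 8.39 FPKM with the drug. Notch4, an endothelial Notch receptor, measured 8.77, 7.74 and 9.92 FPKM without and 8.44 and 6.26 FPKM with it. Hey1, a Notch target, measured 5.44, 3.83 and 3.92 FPKM without and 3.90 and 4.06 FPKM with it. In Dll4 treated 33/35 was the highest library and in Notch4 the lowest, and in Hey1 untreated 13 stood alone. The log2 fold changes were 0.14 (SE 0.16), -0.25 (SE 0.20) and -0.11 (SE 0.20), and 0 of the 3 passed. Among 10 tested further arterial genes 3 had higher and 7 lower means, at a median log2 difference of -0.10, and 0 passed. The smallest p belonged to Mecom, a zinc finger factor, at 4.00, 3.75 and 4.80 FPKM without and 5.05 and 5.77 FPKM with the drug, followed by Gja5, an arterial gap junction protein (log2 fold change -0.22, SE 0.20).

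The 3 lymphatic members Prox1, Pdpn and Lyve1 varied widely among the libraries, with a median of 8.05 times between highest and lowest, and their groups overlapped. Prox1 (chromosome 1, 190118035 to 190170714), the factor that sets lymphatic identity and is also known from skeletal muscle, measured 0.169, 4.72 and 0.0154 FPKM in untreated 13, 14 and 15, against 1.07 and 0.403 FPKM in treated 17 and treated 33/35. This is the order of the summed muscle markers, and Prox1 was the only member with it, where 7.58% of all tested genes had it. Prox1 passed the filter on low values through untreated 14. Without that library it was not tested, and its treated values lay above untreated 13 and 15. Pdpn, podoplanin, which lymphatic vessels share with fibroblast-like and mesothelial cells, measured 1.28, 6.52 and 0.811 FPKM without and 2.11 and 2.12 FPKM with the drug. It was likewise highest in untreated 14. Lyve1, a hyaluronan receptor of lymphatic vessels and some macrophages, measured 3.40, 5.94 and 2.11 FPKM without and 4.26 and 1.33 FPKM with the drug. The Lyve1 log2 fold change was -0.45 (SE 0.58), those of Prox1 and Pdpn were -0.03 (SE 1.15) and 0.04 (SE 0.78), and each had a limma adjusted p of 1. All 3 were highest in untreated 14, where 33.5% of all tested genes were.

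Of 9 further lymphatic genes matched, 4 were highest in untreated 14 like these members, 3 in untreated 13, 1 in untreated 15 and 1 in treated 33/35. Those highest in untreated 14 were Maf, Tbx1, Itga9 and Stab2, and Maf and Tbx1 had the order of the muscle markers. Maf, a transcription factor of lymphatic valves and other tissues, measured 4.71, 23.5 and 2.54 FPKM without and 9.43 and 6.88 FPKM with the drug. Ccl21a, the chemokine made by lymphatic vessels, measured 5.66, 1.47 and 1.36 FPKM in untreated 13, 14 and 15, against 3.35 and 0.143 FPKM in treated 17 and treated 33/35. Mmrn1, a lymphatic matrix protein, measured 1.20, 0.197 and 0.362 FPKM without and 1.05 and 0.0587 FPKM with the drug. Reln, made by lymphatic collecting vessels, measured 1.21, 0.769 and 0.296 FPKM without and 0.540 and 0.183 FPKM with it. Ccl21a, Mmrn1 and Reln were the 3 highest in untreated 13, and all 3 were lowest in treated 33/35. All but Ccl21a of the genes named so far in this list were chosen after their values were seen. Of the 9 genes 5 were tested and 0 passed, with a median log2 fold change of 0.24, which was -0.016 without untreated 14. Thy1, a surface protein that lymphatic vessels share with fibroblasts, had the smallest p (log2 fold change 0.32, SE 0.34), and Ccl21a the next (-0.85, SE 0.98). Nrp2 of this list, named after its values were seen, had a lowest limma adjusted p of 0.0132 over the alternatives. Among these, the fit with the muscle marker level as a covariate called 1386 of all tested genes higher and 438 lower. Without untreated 14 the log2 fold change of Nrp2 was -0.20 (limma adjusted p = 0.709).

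Summed values of other cell types are set here next to these lymphatic levels. Besides the muscle markers, the 7 fibroblast markers summed to 712, 805 and 266 FPKM without and 537 and 851 FPKM with the drug, and all were above 0 in every library. The 7 macrophage markers summed to 124, 141 and 88.7 FPKM without and 102 and 138 FPKM with it. The 6 mesothelial markers summed to at most 1.29 FPKM, with Wt1 listed at 0 in 4 libraries. The part of muscle, fibroblasts and macrophages in the levels of Prox1, Pdpn and Lyve1 was not tested, and mesothelial markers were near 0.

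**Figure D5:**
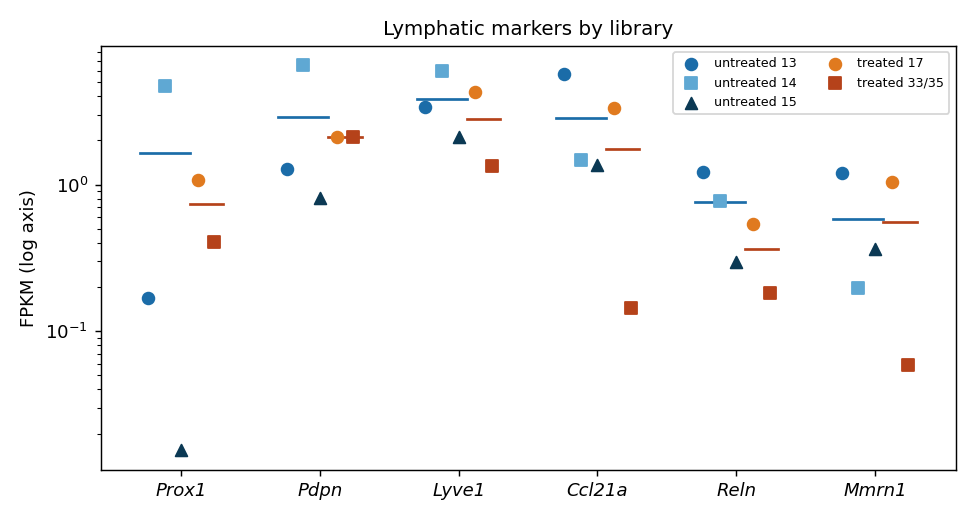
FPKM (log axis) of the lymphatic members Prox1, Pdpn and Lyve1 and of Ccl21a, Reln and Mmrn1, which are 3 of 9 further lymphatic genes, in each library, with bars at the group means. Untreated 14 is highest for the first 3 (4.72, 6.52 and 5.94 FPKM), and untreated 13 for the others (5.66, 1.21 and 1.20 FPKM).

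Among the 6 junction and adhesion genes the groups overlapped in each. Pecam1, the adhesion molecule of endothelial contacts, measured 45.0, 42.9 and 45.2 FPKM without and 41.3 and 45.3 FPKM with the drug. Cdh5 measured 52.9, 40.9 and 55.7 FPKM without and 52.7 and 56.0 FPKM with it. Esam, a tight junction adhesion molecule, averaged 34.8 ± 4.65 FPKM (SD, n = 3) in untreated libraries, against 35.8 ± 0.969 FPKM (SD, n = 2) in treated ones. Over all libraries Icam2, an adhesion ligand for leukocytes, ranged from 7.93 to 13.5 FPKM and the sialomucin Emcn from 13.8 to 22.1 FPKM. In Pecam1 the libraries lay within 1.10 times of each other, and in Cdh5, Esam and Icam2 the lowest library was untreated 14.

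Cldn5, the claudin of endothelial tight junctions, varied most among the junction genes. It measured 31.0, 21.5 and 16.3 FPKM in the untreated libraries, 21.4 FPKM in treated 17 and 78.1 FPKM in treated 33/35. The single library treated 33/35 set its log2 fold change of 0.87, with an SE of 0.62 and a limma adjusted p of 1, since treated 17 lay inside the untreated range. Without treated 33/35 the log2 fold change was -0.048 and without treated 17 it was 1.79.

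Among the matrix, secreted and lumen genes, Egfl7 was the most abundant and separated the groups. Egfl7 (chromosome 2, 26580014 to 26593120), a secreted protein of the vessel wall, measured 86.2, 71.0 and 91.2 FPKM across the untreated libraries, against 106 and 112 FPKM across the treated pair. Both treated values lay above all untreated ones, with means of 82.8 ± 10.5 FPKM (SD, n = 3) and 109 ± 4.29 FPKM (SD, n = 2). The log2 fold change was 0.41, with an SE of 0.18 and a limma adjusted p of 1. Relative to Cdh5 it was 1.63, 1.74 and 1.64 without and 2.02 and 2.01 with the drug. Agpat2, an adipocyte lipid enzyme annotated on the opposite strand, overlaps the gene, and whether the counting used strand is not given in the sources used here. Agpat2 measured 753, 140 and 688 FPKM without and 595 and 471 FPKM with the drug, and its part in the Egfl7 values was not tested.

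Vwf and Plvap were highest in untreated 14. Vwf, the clotting factor of larger vessels, measured 7.90, 11.1 and 3.35 FPKM without and 7.31 and 6.07 FPKM with the drug. Plvap, which forms the diaphragms of endothelial pores, measured 9.45, 16.6 and 5.74 FPKM without and 7.71 and 7.05 FPKM with it. In both genes the treated libraries lay inside an untreated range of more than 2 times. Nos3, the endothelial nitric oxide synthase, ranged over all libraries from 6.35 to 8.29 FPKM, Mmrn2, a matrix protein of the vessel wall, from 11.5 to 13.4 FPKM and Rasip1, a regulator of lumen formation, from 9.73 to 13.0 FPKM. Ecscr, an endothelial surface protein, was the steadiest member, with 9.05 to 9.73 FPKM. Vwf, Plvap, Nos3, Mmrn2, Rasip1 and Ecscr did not pass the test (limma adjusted p = 1 for each).

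Ligands of these receptors were tested beside the members. Of 17 tested angiogenic ligands and coreceptors 11 had higher and 6 lower means with the drug. The median log2 fold change was 0.058, and 0 passed. Without untreated 14 the median was -0.050, with 6 of 16 tested higher and 10 lower. Over the alternatives, the lowest limma adjusted p was 0.0452 for Vegfb, 0.0299 for Nrp1 and 0.0132 for Nrp2, all named after their values were seen. Among these alternatives, the fit with a muscle covariate called 1386 of all tested genes higher and 438 lower. Without untreated 14 the log2 fold changes of Vegfb, Nrp1 and Nrp2 were 0.0030, -0.28 and -0.20. Their limma adjusted p was then 0.996, 0.339 and 0.709. Vegfc, the ligand of Flt4, measured 2.25, 1.93 and 1.32 FPKM without and 2.66 and 2.44 FPKM with the drug, higher in both treated libraries (log2 fold change 0.41, SE 0.25, limma adjusted p = 1). This held for 1 of the 17 tested genes of the list, where 5.5% of all tested genes lay so. Angpt1, the activating ligand of Tek, measured 6.63, 7.60 and 5.70 FPKM without and 6.83 and 10.9 FPKM with the drug, where treated 33/35 alone stood high. Vegfa, named after its values were seen, was abundant and overlapped fully, at 206, 121 and 236 FPKM without and 166 and 200.5 FPKM with it.

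Of 16 other endothelial transcription factors tested, 14 had higher and 2 lower means in the treated libraries, where 64.3% of all tested genes had higher ones. The median log2 difference was 0.18, and 0 passed. Without untreated 14, 11 had higher and 5 lower means. Both treated libraries stood above the untreated range in 5, where 5.5% of all tested genes did so: Bcl6b, Tcf15, Meox2, Hhex and Tal1. Tal1 measured 1.14 FPKM in untreated 13 and 1.16 FPKM in treated 17. Centred on the pan-endothelial members, Bcl6b and Tcf15 stayed above, where 3.27% of all tested genes lay, while Meox2, Hhex and Tal1 overlapped. Bcl6b, an endothelial zinc finger repressor, measured 6.61, 3.61 and 4.44 FPKM without and 11.4 and 19.2 FPKM with the drug (log2 fold change 1.54, SE 0.35, limma adjusted p = 1, at lowest 0.0330 over the alternatives). Without untreated 14 the Bcl6b log2 fold change was 1.37 (limma adjusted p = 0.214). Tcf15, a factor of fat and muscle capillaries that pairs with Meox2, measured 9.22, 8.43 and 14.1 FPKM without and 16.0 and 16.0 FPKM with it (log2 fold change 0.61, SE 0.26, limma adjusted p = 1). Meox2 itself, with Hhex and Tal1 named after the values were seen, measured 8.84, 9.86 and 8.74 FPKM without and 12.9 and 10.5 FPKM with it. Mef2c, a factor of muscle as well as endothelium named after its values were seen, measured 4.43, 173 and 3.70 FPKM without and 59.3 and 29.9 FPKM with the drug. It followed the muscle markers, and was the only factor of the list called without untreated 14 (log2 fold change 3.23, limma adjusted p = 0.0434). With a muscle covariate it was called in the opposite direction (log2 fold change -0.82, limma adjusted p = 0.0332), in a fit that called 1386 of all tested genes higher and 438 lower.

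In the blood-flow response list 6 of 9 tested genes had higher and 3 lower means, with a median log2 fold change of 0.15, which was -0.13 without untreated 14. Klf2 and Klf4, factors induced by laminar flow, had the smallest p and did not pass. Because whole tissue was sequenced, these values do not tell which cells expressed them. Klf4 measured 13.5, 9.14 and 10.7 FPKM without and 27.4 and 27.9 FPKM with the drug (log2 fold change 1.30, SE 0.20, limma adjusted p = 1, at lowest 0.0149 over the alternatives). Klf2 measured 13.9, 10.5 and 11.9 FPKM without and 36.3 and 46.4 FPKM with the drug (log2 fold change 1.73, SE 0.20). In Klf2 and Klf4 both treated values lay above all untreated ones, where 5.5% of all tested genes did so. The limma adjusted p of Klf2 was 0.579, which was 0.0375 without untreated 14 and at lowest 0.0132 over the alternatives. Of these, the fit with a muscle covariate called 1386 of all tested genes higher and 438 lower. Thbd, thrombomodulin, a surface anticoagulant named after its values were seen, lay lower in both treated libraries, where 3.18% of all tested genes did so. It measured 12.8, 13.4 and 13.0 FPKM without and 11.2 and 8.69 FPKM with the drug.

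Before the alternatives, no gene of the lists for capillary lipid handling and veins passed. Over the alternatives, the lowest limma adjusted p was 0.0132 for Rgcc, 0.0203 for Fabp4, 0.0378 for Aqp7 and 0.0436 for Cd36. Among these alternatives, the fit with a muscle covariate called 1386 of all tested genes higher and 438 lower. Without untreated 14 the log2 fold changes of Rgcc, Fabp4, Aqp7 and Cd36 were -0.24, -0.19, -0.21 and -0.16. In that fit 0 genes of the capillary list passed. Rgcc, Fabp4, Aqp7 and Cd36 were named after their values were seen. Of 11 tested genes of capillary lipid handling 8 had higher means, with a median log2 fold change of 0.13, which was -0.19 without untreated 14, since 10 of the 11 were lowest in that library. Timp4 had -0.31 (SE 0.34) and Cavin2, a caveolar coat protein, 0.21 (SE 0.26). Fabp4, Cd36 and Lpl of this list are made by adipocytes too. Of 7 tested venous genes 3 had higher and 4 lower means, with a median of -0.093. Selp, the adhesion molecule P-selectin, had -0.55 (SE 0.30) and lay lower in both treated libraries, where 3.18% of all tested genes did so. Its mean was 1.23 FPKM without and 0.670 FPKM with the drug, so Selp passed the filter on low values through the untreated libraries. Without untreated 14 Selp was not tested. Lrg1 had -0.25 (SE 0.19). Pericyte and smooth muscle markers, which belong to the vessel wall, numbered 11 tested, whose median log2 difference was 0.093, and 0 passed. Among them Des, desmin, named after its values were seen, is shared with skeletal muscle and measured 32.2, 799 and 29.9 FPKM without and 326 and 157 FPKM with the drug. Cspg4, also named after its values were seen, had a lowest limma adjusted p of 0.0299 over the same alternatives. Without untreated 14 its log2 fold change was -0.19 (limma adjusted p = 0.513).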

How the data were processed

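Whole brown adipose tissue was extracted with Trizol, and total RNA was sequenced by Illumina per the labels in 3 untreated and 3 treated samples. The authors deposited 1 FPKM value per Ensembl gene identifier and sample, per the file headers. The submitters' processing notes name CASAVA 1.7 and GRCm38. Aligner, quantification program, annotation and strand setting are not given in the sources used here. Replicates were not pooled in the files, and samples 33 and 35 held identical values and entered once.

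Symbols and coordinates came from GENCODE M21 (GRCm38), which held 44395 of 45320 identifiers. Foxf1, Foxc2 and Acta1 had no match and were not analysed here. Genes that averaged 1 FPKM or more were compared on log2(FPKM + 0.5) with limma 3.58.1 in R 4.3.3, with a variance trend, 3 residual degrees of freedom, two-sided tests and Benjamini-Hochberg adjustment over 13527 genes. Fold changes on this scale understate the change of low genes. Read totals are unknown, so no counting interval is given, and a value of 0 may be a failed estimate. Python 3.11.15, pandas 2.3.3 and matplotlib 3.10.9 made counts and figures. The test was tested on simulated data drawn for each gene on its own. Such data hold no shared muscle content, so they do not show how the test behaves with it.

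The members and gene lists were chosen with earlier results of these data known. Members with groups apart, with a range of at least 2 times or in a named role are given per library, and of each of the 7 pathway lists the 2 genes of smallest p. Other genes named are marked as chosen after their values were seen. The lists of other cell types are given by sums, shares or medians, and the Schwann cell list is not described. Alternatives covered the pseudocount, filter, scaling, variance model, weights, a muscle covariate, gene class, threshold and each library left out, and Cldn5 left out of the summed share.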

Additional observations from a re-analysis of the deposited data

How the results depend on the processing

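The 19 alternatives kept the 0 members called in all but 1 of them. The exception was the fit with the mean log2 level of the muscle markers as a covariate, where 2 members were called, Egfl7 with a log2 fold change of 0.55 (limma adjusted p = 0.0287) and Kdr with 0.48 (limma adjusted p = 0.0414). That fit called 1386 of all tested genes higher and 438 lower, with only 5 libraries for 3 coefficients, and turned Mef2c to -0.82 (limma adjusted p = 0.0332). The median log2 fold change of the members ranged from -0.13 to 0.080, less than 0.134, the SD of the members' median level over the untreated libraries, away from -0.015. Of the 32 members, 14 kept their sign in every alternative they entered, among them Sox18, Sox7, Erg, Tek, Egfl7, Flt1, Flt4, Eng and Notch4, and 18 changed it in at least 1. Quantile normalization and median centring moved the median of all genes from 0.06 to -0.04 and -0.05.

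Over all genes, limma called 4 higher and 2 lower. The higher count was 0 at a pseudocount of 0.1 (120 genes at an unadjusted p under 0.05), and 7 with sample weights and with the identical tables counted separately. Both counts were 0 without a filter (522 genes at an unadjusted p under 0.05) and with protein-coding genes alone (82 genes). With a filter at 5 FPKM they were 0 and 1 (58 genes). Leaving out 1 library at a time gave 0 to 149 higher and 0 to 9 lower. The values of 149 and 9 came without untreated 14, and the other 4 gave 0 and 0, with 85 to 118 genes at an unadjusted p under 0.05. Without either treated library the lone treated sample is assumed to vary like the others.

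Members whose groups did not overlap numbered 3 higher and 1 lower. Centring on the pan-endothelial members gave 2 higher and 5 lower. Without untreated 14, an alternative for this count chosen after the data were seen, there were 5 higher and 7 lower, where 25.3% and 20.8% of all tested genes lay so. No paired analysis was possible because the groups share no replicate numbers. The small number of libraries and the unknown read totals limit what the test can call.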
